A study of Mus musculus with 6 samples.

Results

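The genes described here are 10 components of the p53 pathway, chosen by name: the p53 gene Trp53, its inhibitors Mdm2 and Mdm4, and the target genes Cdkn1a, Ccng1, Trp53inp1, Sesn2, Zmat3, Eda2r and Phlda3. All 10 were found among the 55471 gene IDs of the deposited table, each in a single row. p53 is a transcription factor that is held at low protein levels by Mdm2, a ubiquitin ligase, and Mdm4, a partner of Mdm2 that masks the activation domain of p53. When DNA damage, ribosomal stress or oncogene activity frees it, p53 activates genes for cell cycle arrest, repair, metabolic adjustment and cell death, Mdm2 itself among them, which closes a feedback loop. In haematopoietic stem cells p53 is known for restraining proliferation and keeping cells quiescent. Most control of p53 acts on the protein, so transcript levels of Trp53 are not a measure of p53 activity.

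The study asked how induction of ETV6-RUNX1, a fusion found in childhood B-cell precursor leukaemia, alters stem cells in mice. Both groups carried the ETV6-RUNX1 genotype. The uninduced group (n = 3 libraries) received no doxycycline, and the induced group (n = 3) received doxycycline in food for 2 weeks. RNA came from haematopoietic cells lacking lineage antigens and CD48 and carrying Kit, Sca1 and CD150. Age, sex, and the promoter and cell type driving the fusion are not given in the sources used here. No library of doxycycline-fed mice without the fusion was analysed here, so fusion and drug cannot be told apart. Nothing in the labels says that each library came from a separate mouse, so p-values measure the spread between these libraries, which may be technical.

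Values were in TPM, a unit that corrects for gene length and library total, so levels can be compared between genes but sequencing depth is unknown. Nuclear protein-coding genes held 26.6% to 32.9% of the TPM in uninduced libraries and 20.5% to 23.2% in induced libraries. The median change of all 13470 tested genes was -0.35 on the log2 scale, and 0.0032 after median-of-ratios scaling, which aligns the median gene between libraries. Median-of-ratios values are given for the 7 tested members and wherever a reported call differs between the scales. Summed TPM of 10 erythroid markers was 56.9 to 62.7 in uninduced and 416 to 479 in induced libraries, led by Hbb-bs and carried by globin genes. Of 9 erythroid markers tested 7 were called higher; Klf1 overlapped between groups, and the erythropoietin receptor gene Epor had means of 3.37 and 0.485 TPM without overlap (limma p 0.00892, adjusted p 0.0638). The lymphoid markers Cd79a, Ebf1, Pax5, Il7r, Dntt, Cd3e, Cd3g and Ncr1 were listed at 0 in all 6 libraries, and Nkg7 was listed at 5.84 to 15.8 TPM in uninduced and at 0 in induced libraries. The sums of 10 stem cell markers, led by Kit, overlapped between groups (454 to 635 and 528 to 566 TPM), as did those of 10 myeloid markers, led by Lyz2 (235 to 286 and 234 to 285), and of 6 megakaryocyte markers, led by Pf4 (102 to 135 and 119 to 129). Within overlapping sums single markers differed: Pf4 (28.4 ± 11.2 to 60.7 ± 8.62 TPM, SD, n = 3 each) and Ppbp were called higher and Gp9 lower (limma adjusted p 0.0253, 0.00343 and 0.0187), Gp9 on deposited TPM only (adjusted p 0.0623 after median-of-ratios scaling). A list of 4 genes of CD48-positive progenitors summed to 101 to 111 TPM in uninduced and 73.2 to 94.6 TPM in induced libraries. Its proliferation gene Mki67 went from a mean of 49.9 to 7.04 TPM, whereas Cd34, the highest over all libraries, went from 49.5 to 71.5 TPM (limma adjusted p 0.11, and 0.0204 after median-of-ratios scaling). The part of these shifts in the results below was not tested. In bulk RNA, fewer cells of a type and less RNA per cell cannot be told apart.

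Promoter sequence was examined because p53 acts on its targets through a recognisable DNA element. RefSeq promoter windows of build GRCm38.p6, running from 250 bases before to 50 after each transcription start, were matched by symbol for 8 of the 10 genes, in 10 windows; Trp53inp1 and Zmat3 had none. The p53 half-site, a 10-letter motif that reads the same on both strands, was present in 4 of the 10 windows. Across 32851 windows of the same length, 8.36% held it. The matches in Trp53, Mdm2, Ccng1 and Cdkn1a are shown 5′ to 3′ along the gene's strand, with matching letters in capitals. They begin 75, 186, 185, 73 and 51 bases before the start, in the order printed.

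Trp53, chr11:69580284-69580293, plus strand: GGACTTGCCC
Mdm2, chr10:117710935-117710944, minus strand: GAACTTGCCT
Ccng1, chr11:40755462-40755471, minus strand: GGGCAAGCCT
Cdkn1a, first match, chr17:29090906-29090915, plus strand: GGACTAGCTT
Cdkn1a, the second match, chr17:29090928-29090937, plus strand: GAACATGTCT

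Cdkn1a and Ccng1 also held a pair of directly adjacent half-sites with 1 mismatch at most, which 0.088% of all windows held (29 of 32851). Of 64 windows of further p53 targets 2 also held such a pair, in Gtse1 and Rps27l. This looser search was chosen after the windows were seen. A stricter one, for 2 exact half-sites at most 13 bases apart, matched 1 of the 10 windows, 0 of the 64 and 0.073% of all windows. The mismatch is in lower case.

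Cdkn1a, chr17:29090928-29090947, plus strand: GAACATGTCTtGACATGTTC
Ccng1, chr11:40755462-40755481, minus strand: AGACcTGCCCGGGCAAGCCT

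The Cdkn1a matches lie before the more upstream of its 2 RefSeq starts. The 250 bases before that start, and the 250 before the start of Trp53, whose transcript fell, are printed with half-site letters in capitals. A match describes letters in this window and is not evidence of binding.

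Cdkn1a, chr17:29090729-29090978, plus strand: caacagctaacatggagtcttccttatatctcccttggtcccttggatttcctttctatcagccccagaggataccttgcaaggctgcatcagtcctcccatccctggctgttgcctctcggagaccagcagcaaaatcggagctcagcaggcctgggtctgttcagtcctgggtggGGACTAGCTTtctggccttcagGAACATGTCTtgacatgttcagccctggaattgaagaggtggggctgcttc
Trp53, chr11:69580109-69580358, plus strand: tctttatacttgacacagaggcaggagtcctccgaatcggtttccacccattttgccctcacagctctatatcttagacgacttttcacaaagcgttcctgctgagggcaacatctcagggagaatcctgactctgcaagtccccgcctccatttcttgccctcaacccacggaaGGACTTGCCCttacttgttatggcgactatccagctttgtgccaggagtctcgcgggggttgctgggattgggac

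Among the 10 genes, Trp53 was the only one past the threshold on either scale: its transcript fell 2.77-fold in induced cells. Its inhibitors Mdm2 and Mdm4 and its targets Cdkn1a, Ccng1 and Sesn2 did not pass. Trp53inp1, a target that promotes cell death and autophagy, was 3.93-fold higher by group means and missed the threshold. Zmat3, Eda2r and Phlda3 had means below 1 TPM and were not tested. Of the 7 genes tested, 0 were called higher and 1 lower (limma with Benjamini-Hochberg adjustment over all tested genes, threshold 0.05). Over all 13470 tested genes 11.5% were called, 1.29% higher and 10.2% lower, so 1 of 7, or 14.3%, is near the background. After median-of-ratios scaling the count was again 1 of 7, where 5.98% of all genes were called, 2.88% higher and 3.1% lower. The groups did not overlap in TPM for Trp53, Mdm2 and Trp53inp1, 3 of the 7, against 33.1% of all tested genes.

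**Figure D1:**
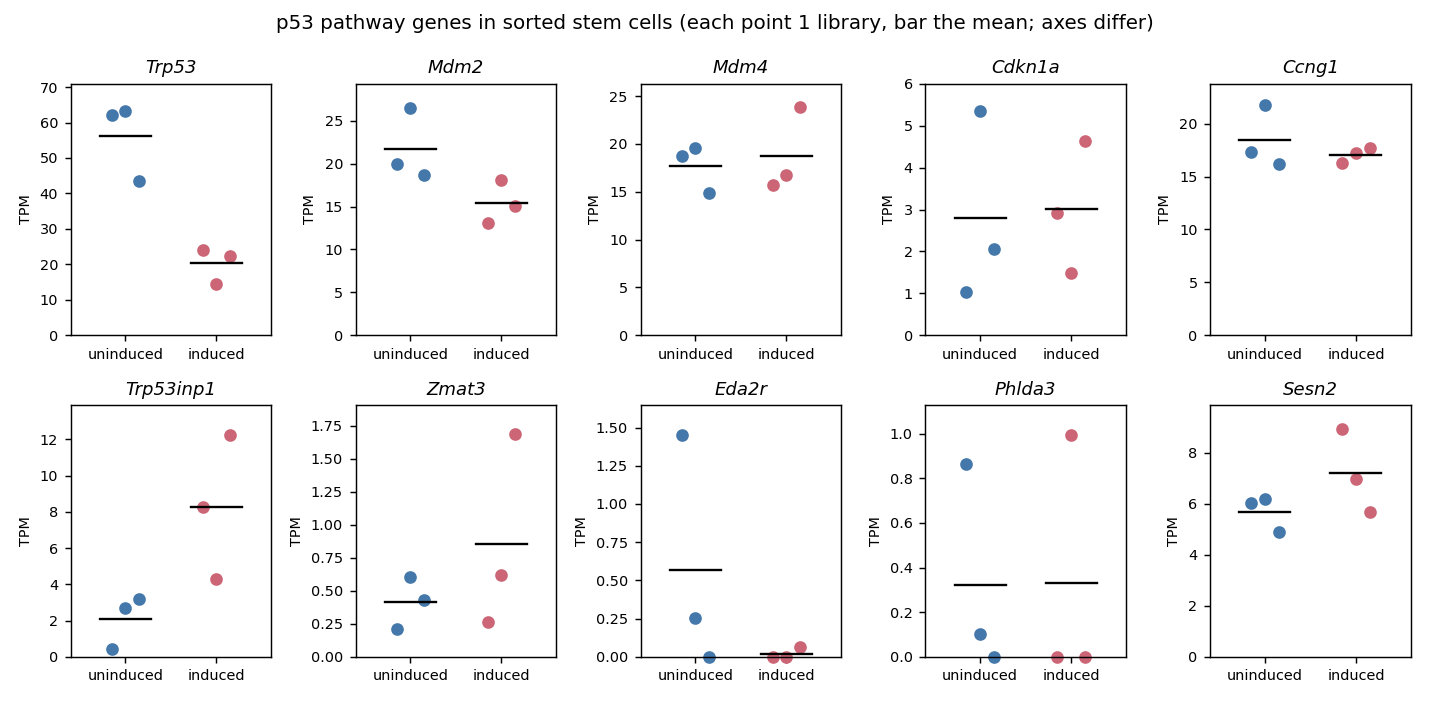
TPM of the 10 p53 pathway genes in each library, with 3 uninduced libraries in blue and 3 induced libraries in red; bars are group means, each panel starts at 0 and the panels have different scales. Trp53 lies at 43.4 to 63.3 TPM in uninduced and 14.5 to 24.0 TPM in induced libraries, whereas the points of Ccng1, Mdm4 and Cdkn1a overlap between groups.

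Trp53 (ENSMUSG00000059552, chr11:69580359-69591873 in GRCm38, plus strand) was listed at 62.0, 63.3 and 43.4 TPM in uninduced replicates 1 to 3 and at 24.0, 14.5 and 22.3 TPM in induced replicates 1 to 3. Every uninduced library exceeded every induced one. The means were 56.2 ± 11.1 and 20.3 ± 5.07 TPM (SD, n = 3 each). On the log2(TPM + 1) scale Trp53 changed by -1.44 (SE 0.25, 95% interval -1.998 to -0.87, limma adjusted p 0.00761). After median-of-ratios scaling the change was -1.04 (limma adjusted p 0.0224). The call held under all 17 alternatives, including leaving out each library in turn, with changes from -1.61 to -1.03 and adjusted p from 0.00552 to 0.0432. Among all tested genes, 4.47% had a lower change on the deposited scale. The processed pseudogene Trp53-ps, which resembles Trp53 and could take or lend reads, was listed at 3.52, 7.10 and 4.89 TPM in uninduced and 3.48, 3.29 and 1.75 TPM in induced libraries, well under the level of Trp53 itself.

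Mdm2 (ENSMUSG00000020184, chr10:117688875-117710758, minus strand), which encodes the ligase that marks p53 for degradation and is also a p53 target, was listed at 19.97, 26.5 and 18.6 TPM in uninduced and 13.1, 18.04 and 15.03 TPM in induced libraries. The groups did not overlap, although uninduced replicate 3 lay only just above induced replicate 2. Its log2 change was -0.46 (SE 0.24, 95% interval -1.01 to 0.078, limma adjusted p 0.247), close to the -0.35 of the median gene. After median-of-ratios scaling it was -0.077 (adjusted p 0.886).

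Mdm4 (ENSMUSG00000054387, chr1:132959484-133030561, minus strand), which encodes the second p53 inhibitor, was listed at 18.7, 19.6 and 14.9 TPM in uninduced and 15.7, 16.8 and 23.9 TPM in induced libraries. The groups overlapped, with both the lowest and the highest value in replicates numbered 3. Its log2 change was 0.065 (SE 0.25, 95% interval -0.49 to 0.62, limma adjusted p 0.892), and 0.45 after median-of-ratios scaling (adjusted p 0.258). The pseudogene Gm29257 lies on the opposite strand within Mdm4, sharing 639 bases, and was listed at 2.41 to 9.73 TPM; whether counting used strand is not stated, so their reads cannot be told apart there.

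Ccng1 (ENSMUSG00000020326, chr11:40748552-40755311, minus strand), which encodes cyclin G1, a p53 target linked to phosphatase 2A and to control of Mdm2, varied little among induced libraries. It was listed at 17.3, 21.7 and 16.2 TPM in uninduced and 16.3, 17.2 and 17.7 TPM in induced libraries. The groups overlapped. The log2 change was -0.095 (SE 0.23, 95% interval -0.60 to 0.41, limma adjusted p 0.821), and its sign turned to 0.29 after median-of-ratios scaling (adjusted p 0.441).

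Cdkn1a (ENSMUSG00000023067, chr17:29090976-29100727, plus strand) encodes p21, the cyclin-dependent kinase inhibitor through which p53 arrests the cell cycle. It was low, at 1.02, 5.35 and 2.05 TPM in uninduced and 2.93, 1.47 and 4.63 TPM in induced libraries. Libraries of one group differed more than the group means did, and the groups overlapped. AC167363.2, on the opposite strand and sharing 1046 bases with Cdkn1a, was listed at 0.782 TPM at most. The log2 change of 0.16 (SE 0.52, limma adjusted p 0.868) had a 95% interval of -0.99 to 1.31. After median-of-ratios scaling it was 0.44 (adjusted p 0.656). A change of about 1 log2 unit in either direction would lie in or near this interval, so the data do not show that Cdkn1a stayed level. Without uninduced replicate 1 its change was -0.21, and without induced replicate 3 it was -0.12.

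Trp53inp1 (ENSMUSG00000028211, chr4:11156431-11174379, plus strand) had the largest positive change of the 7 tested genes. It was listed at 0.416, 2.71 and 3.19 TPM in uninduced and 8.29, 4.28 and 12.3 TPM in induced libraries. Each induced library was above each uninduced one. The means were 2.11 ± 1.48 and 8.28 ± 3.99 TPM (SD, n = 3 each). The change on the log2(TPM + 1) scale was 1.63 (SE 0.51, 95% interval 0.49 to 2.77, limma adjusted p 0.0669). It also missed the threshold after median-of-ratios scaling (1.91, adjusted p 0.0569), and passed only after rescaling to nuclear protein-coding genes (2.43, adjusted p 0.0482). Over 17 alternatives its adjusted p ranged from 0.0482 to 0.21.

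Sesn2 (ENSMUSG00000028893, chr4:132492032-132510501, minus strand), which encodes sestrin 2, a stress sensor that restrains the growth kinase mTORC1 and is induced by amino acid shortage as well as by p53, was listed at 6.03, 6.17 and 4.88 TPM in uninduced and 8.92, 6.97 and 5.66 TPM in induced libraries. The groups overlapped through induced replicate 3. The log2 change was 0.28 (SE 0.31, 95% interval -0.40 to 0.96, limma adjusted p 0.595). After median-of-ratios scaling it was 0.63 (adjusted p 0.245). Gm12981, which shares 6089 bases with Sesn2 on the same strand, was listed at 1.81 TPM at most.

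**Figure D2:**
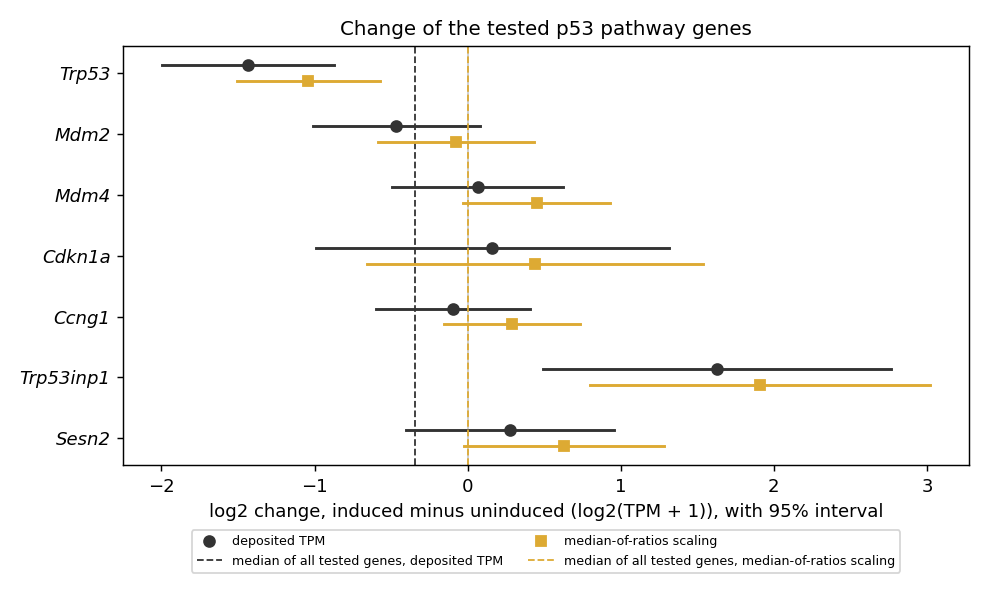
Change of the 7 tested genes on the log2(TPM + 1) scale with 95% intervals, on deposited TPM (black circles) and after median-of-ratios scaling (yellow squares); dashed lines are the medians of all 13470 tested genes. Trp53 lies below both medians, at -1.44 and -1.04, and the interval of Trp53inp1 lies above 0 on both scales although its adjusted p missed 0.05.

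The remaining 3 targets were near the lower limit of the table. Zmat3 (ENSMUSG00000027663, chr3:32334792-32366014, minus strand), which encodes an RNA-binding zinc finger protein that acts in p53-mediated tumour suppression, was listed at 0.209, 0.606 and 0.430 TPM in uninduced and 0.263, 0.619 and 1.69 TPM in induced libraries. Eda2r (ENSMUSG00000034457, chrX:97333840-97377216, minus strand), a death-domain receptor of the tumour necrosis factor family, was listed at 1.45, 0.257 and 0 TPM in uninduced and 0, 0 and 0.0639 TPM in induced libraries. Phlda3 (ENSMUSG00000041801, chr1:135766119-135769136, plus strand), an inhibitor of Akt signalling, was listed at 0.862, 0.104 and 0 TPM in uninduced and 0, 0.994 and 0 TPM in induced libraries. In each of the 3 the groups overlapped. Without an expression filter their adjusted p-values were 0.600, 0.497 and 0.985 (limma).

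Ordered by mean level, Trp53 led in uninduced cells and did not overlap with Mdm2 in the second place. Mdm2, Ccng1 and Mdm4 followed with overlapping neighbours, between 14.9 and 26.5 TPM. A gap separated them from Sesn2, Cdkn1a, Trp53inp1 and the 3 lowest genes, of which each overlapped with the next in order. In induced cells Trp53 was still first by its mean, but its values overlapped with those of Mdm4, the second, and Mdm4, Ccng1 and Mdm2 overlapped in turn. Trp53inp1, of rank 7 by its mean in uninduced cells, had rank 5 and overlapped with Sesn2 at rank 6.

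The ratio of a gene to Trp53 within a library does not depend on how the library is scaled. Mdm2 stood at 0.322, 0.419 and 0.430 of the Trp53 level in uninduced libraries and at 0.545, 1.24 and 0.673 in induced libraries. Mdm4 stood at 0.301, 0.310 and 0.342 of it in uninduced and 0.651, 1.15 and 1.07 in induced libraries. By geometric means the ratio to Trp53 was 1.99-fold higher for Mdm2, 2.93-fold for Mdm4, 2.61-fold for Ccng1, 3.39-fold for Cdkn1a, 3.49-fold for Sesn2 and 13.8-fold for Trp53inp1. The induced ratios lay above the uninduced ones for all 6 genes, which share Trp53 as denominator; the same held for 55.9% of the 13469 other tested genes. The fold of Trp53inp1 was 6.81 without uninduced replicate 1 and 22.5 without uninduced replicate 3, and that of Cdkn1a was 2.17 without uninduced replicate 1. A two-sided exact permutation test over the 20 assignments gave p = 0.1 for every ratio, which is its lower limit in this design, and 0.1 after adjustment over the 6 ratios. None could therefore pass 0.05.

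**Figure D3:**
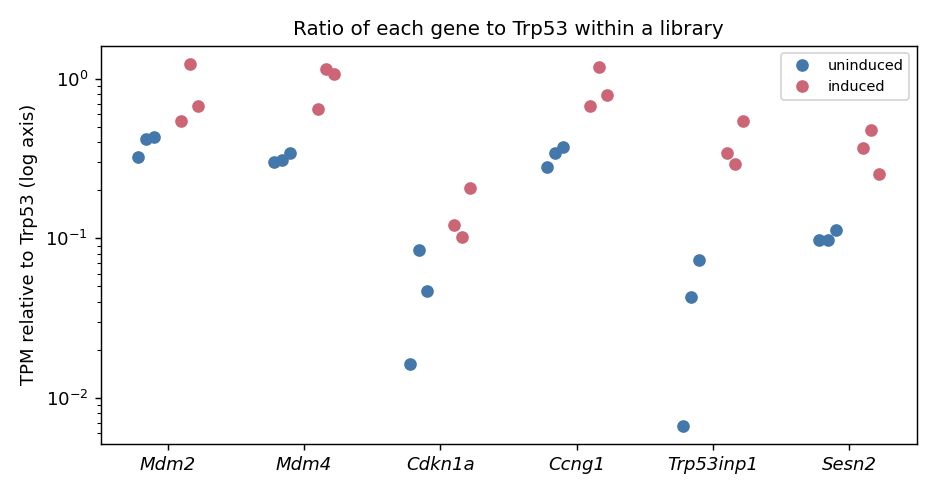
TPM of 6 p53 pathway genes divided by the TPM of Trp53 in the same library, on a log axis, with uninduced libraries in blue and induced libraries in red. For every gene the 3 induced points lie above the 3 uninduced points, from 0.545 to 1.24 against 0.322 to 0.430 for Mdm2.

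Trp53 and Cdkn1a were compared with the 7771 protein-coding genes of at least 5 TPM on average for likeness of pattern over the 6 libraries. Trp53 was most like Foxred2 (Pearson r 0.999), Sae1 (0.998) and Prpf8 (0.997), each lower in every induced library than in any uninduced library. Cdkn1a was most like Chmp4b (0.992), Mknk2 (0.989) and Irak3 (0.977), each highest in uninduced replicate 2 and lowest in uninduced replicate 1. The libraries of one group share their treatment, and these values only describe the ranking.

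Among regulators of p53 outside the 10 genes, the checkpoint kinase Chek1 fell most. Of 24 listed regulators 21 were tested, and 0 were called higher and 3 lower, or 14.3% called beside 11.5% of all tested genes, a share near the background. Their median log2 change was -0.47 against -0.35 for all tested genes. Chek1, which acts on p53 after replication stress, was listed at 7.77, 6.84 and 5.92 TPM in uninduced and 0.870, 0.328 and 0.104 TPM in induced libraries (log2 change -2.48, limma adjusted p 0.0053). No induced library reached 1 TPM, so Chek1 passed the filter of 1 TPM only through the uninduced group. Chek1 was also called after median-of-ratios scaling (-2.23, limma adjusted p 0.0136). Usp7, a deubiquitinase of both Mdm2 and p53, was listed at 101, 84.3 and 61.8 TPM in uninduced and 41.2, 37.0 and 41.2 TPM in induced libraries (log2 change -1.01, limma adjusted p 0.016). Cop1, a ubiquitin ligase that targets p53, was listed at 22.2, 25.2 and 26.4 TPM in uninduced and 9.64, 14.8 and 8.81 TPM in induced libraries (log2 change -1.11, limma adjusted p 0.0239). With median-of-ratios scaling Usp7 and Cop1 no longer passed (adjusted p 0.075 and 0.162), leaving Chek1 as 1 call of 21, or 4.76% beside 5.98% of all tested genes. Of the 6 fits that each omit a library, Usp7 passed only in the one without uninduced replicate 3, and Cop1 only in the one without induced replicate 2. Cdkn2a, which encodes the p53 activator Arf, and the p53 relatives Trp63 and Trp73 were listed at 0 in all 6 libraries.

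Further p53 targets were called in both directions on deposited TPM. Of 54 listed targets 44 were tested, and 3 were called higher and 4 lower, or 6.82% and 9.09%, beside 1.29% and 10.2% of all tested genes. Their median log2 change was -0.30, against -0.35 for all tested genes. After median-of-ratios scaling 5 were called higher (11.4%, beside 2.88% of all tested genes) and 0 lower (beside 3.1%), with a median of 0.083 against 0.0032. On deposited TPM the 7 calls became 2 without uninduced replicate 1 or induced replicate 1, 3 without uninduced replicate 2 or induced replicate 2, and 4 without induced replicate 3. Calls over all 13470 genes fell as well, from 1549 to between 573 and 1198 when a library was left out. The target lists were written by hand from general knowledge, and many members also answer to other factors.

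Among targets of arrest and stress, Sesn1, the sestrin related to Sesn2, was listed at 21.35, 30.2 and 27.5 TPM in uninduced and 52.8, 45.9 and 69.6 TPM in induced libraries (log2 change 1.05, limma adjusted p 0.0181). Every induced library exceeded every uninduced one, and Sesn1 was called on both scales (1.45 after median-of-ratios scaling, adjusted p 0.0053). Its call was lost without uninduced replicate 1, induced replicate 1 or induced replicate 3 (limma adjusted p 0.0644, 0.0587 and 0.0682). It was also lost without an expression filter (0.0563) and without the variance trend (0.0628), so Sesn1 passed under 12 of 17 alternatives. Plk2, a stress-responsive kinase, fell from 20.04, 19.2 and 19.1 TPM to 4.85, 6.67 and 9.25 TPM (log2 change -1.40, limma adjusted p 0.0132), a call lost after median-of-ratios scaling (-1.03, adjusted p 0.0554) and without uninduced replicate 1, uninduced replicate 2, induced replicate 1 or induced replicate 2 (adjusted p 0.0512 to 0.0563). Plk2 passed under 11 of 17 alternatives. Gadd45a, a growth arrest gene, was listed at 7.36, 11.8 and 4.06 TPM in uninduced and 25.6, 13.1 and 14.6 TPM in induced libraries, and was called only after median-of-ratios scaling (1.52, limma adjusted p 0.0415; 1.14 and 0.0867 on deposited TPM). Gpx1, a glutathione peroxidase, was likewise called on that scale only (0.76, adjusted p 0.00442; 0.35 and 0.133 on deposited TPM).

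Of 12 tested targets for apoptosis, 0 were called higher and 1 lower, or 8.33% beside 11.5% of all tested genes. At an unadjusted p under 0.05 (limma) on deposited TPM, 3 more did not survive adjustment. Of all 13470 tested genes 3762 passed this unadjusted threshold, so such values are common in these data. Bbc3, which encodes the death protein Puma, had means of 1.99 ± 0.901 and 6.22 ± 2.43 TPM (SD, n = 3 each; limma p 0.0122, adjusted p 0.0775). Pidd1 and Perp had log2 changes of -1.53 and -1.29 (limma p 0.00829 and 0.0445, adjusted p 0.0613 and 0.167). Aen, a nuclease gene, fell from 21.2, 25.5 and 7.74 TPM to 3.44, 7.77 and 3.50 TPM (log2 change -1.62, limma adjusted p 0.0467), with overlapping groups. Aen did not pass with median-of-ratios scaling (adjusted p 0.139), and of the 6 fits that each omit a library it passed only in the one without uninduced replicate 3. Of 7 tested DNA repair and synthesis targets, including Xpc, Ddb2 and Rrm2b, 0 were called in either direction on either scale. Over all tested genes 11.5% were called on deposited TPM and 5.98% after median-of-ratios scaling. The log2 changes of the 7 ran from -0.74 to 0.46 on deposited TPM and from -0.37 to 0.81 after median-of-ratios scaling. At an unadjusted p under 0.05 (limma), Rps27l alone passed on deposited TPM (p 0.0336). Ercc5 alone passed after median-of-ratios scaling (p 0.0237), where 2932 of all 13470 tested genes did.

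The pair of targets linked to stem cell quiescence moved in opposite directions. Gfi1, a zinc finger repressor that restrains stem cell cycling, was listed at 3.88, 3.46 and 2.16 TPM in uninduced and 12.5, 13.6 and 12.5 TPM in induced libraries (log2 change 1.76, limma adjusted p 0.0071), and kept its call under all 17 alternatives. Ndn, which encodes the growth suppressor necdin, fell from 12.5, 10.1 and 9.68 TPM to 3.79, 2.92 and 4.05 TPM (log2 change -1.36, limma adjusted p 0.0191). Ndn did not pass with median-of-ratios scaling (-1.01, adjusted p 0.0662) nor without uninduced replicate 1, uninduced replicate 2, induced replicate 1 or induced replicate 2 (adjusted p 0.0579 to 0.0774). Its call held under 10 of 17 alternatives. The pair of called genes in the mixed target list also differed in direction. Klhl26, an adaptor of a ubiquitin ligase, was listed at 0.290, 0.0764 and 0.598 TPM in uninduced and 7.24, 7.85 and 4.24 TPM in induced libraries (log2 change 2.48, limma adjusted p 0.0062). With an uninduced mean of 0.321 TPM, Klhl26 passed the filter of 1 TPM only through the induced group. It is among the targets counted above as called higher. Psrc1, which encodes a spindle protein, fell from 16.3, 12.2 and 7.35 TPM to 4.37, 0.880 and 4.62 TPM (log2 change -1.69, limma adjusted p 0.0478), a call lost after median-of-ratios scaling (-1.36, adjusted p 0.126), with the replicate block (adjusted p 0.0602) and when any library was left out. Psrc1 passed under only 4 of 17 alternatives.

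**Figure D4:**
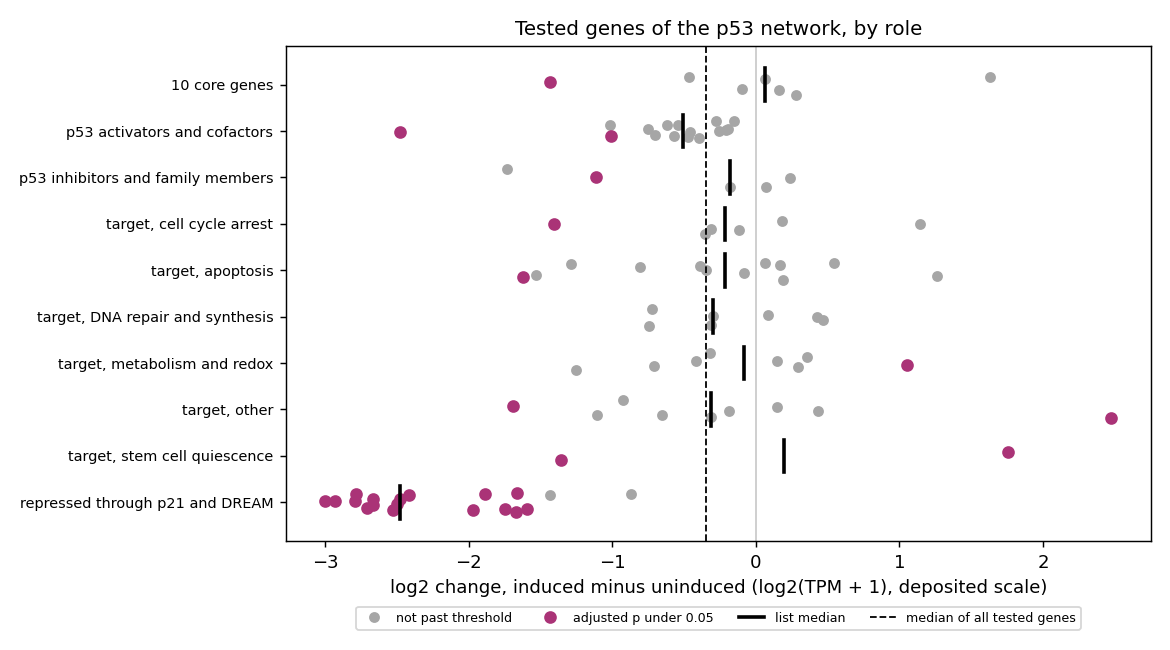
Change of each tested gene of the p53 network on deposited log2(TPM + 1), grouped by role; coloured points passed an adjusted p of 0.05, short bars are list medians and the dashed line is the median of all tested genes, -0.35. Target lists spread on both sides of the dashed line, whereas all 19 tested genes repressed through p21 and DREAM lie below it.

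Genes that p53 represses indirectly were lower in induced cells. p21 can bring this about by letting the DREAM complex form on cell cycle promoters, although the same genes also fall whenever fewer cells divide, so their fall is not a measure of p53 activity. Of 20 listed genes 19 were tested, and 17 were called lower and 0 higher, or 89.5% beside 10.2% of all tested genes. The median log2 change was -2.48. After median-of-ratios scaling 13 of 19 were called lower, or 68.4% beside 3.1% of all tested genes, with a median of -2.15 against 0.0032. The list holds mitotic and replication genes whose fall was already known from these libraries, and is no independent evidence. Mki67, Mcm5, Top2a and Cenpf had the smallest adjusted p. Top2a, which encodes the topoisomerase that untangles replicated DNA, went from 69.2, 65.0 and 57.0 TPM to 10.1, 5.42 and 10.5 TPM (log2 change -2.78, limma adjusted p 0.000571). Cdk1, the mitotic kinase, did not pass (log2 change -1.43, adjusted p 0.0536), nor did Aurka.

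DREAM acts through a promoter element called the CHR. Its letters TTTGAA, searched on both strands, were in 10 of 15 matched windows of the list, each of a different gene, and in 17.9% of all 32851 windows. The motif fell within the last 30 bases before the start in 4 of them, which are printed on the gene's strand with the motif, or its reverse complement, in capitals.

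Cdc20, chr4:118437344-118437373, minus strand: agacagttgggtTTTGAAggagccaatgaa
E2f8, chr7:48881597-48881626, minus strand: gcgggttaatTTCAAAtcgggggctggact
Cdk1, chr10:69352913-69352942, minus strand: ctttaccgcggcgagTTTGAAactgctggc
Top2a, chr11:99024190-99024219, minus strand: ataaaggTTCAAAtgaaactagggaagctc

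Of these genes Cdc20, E2f8 and Top2a were called lower on deposited TPM, and after median-of-ratios scaling Cdc20 did not pass (-1.32, limma adjusted p 0.085). None of the 10 windows of the p53 pathway genes held TTTGAA on either strand, a description of these windows only.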

How the data were processed

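RNA of 6 libraries (3 uninduced, 3 induced) was measured by total RNA sequencing with a stranded low-input kit, per the labels' protocols. The authors deposited gene TPM in a single table. Per the submitters' processing notes, bcl2fastq, HISAT2, StringTie and DESeq2 were used with build GRCm38; versions and read filters are not given in the sources used here. Whether strand was used in counting is not stated. TPM keeps no depth, so no counting interval is given.

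Rows were summed per gene ID (60496 rows, 55471 IDs). Tests used log2(TPM + 1) in limma 3.58.1 (R 4.3.3) with a variance trend, two-sided, on 13470 genes averaging 1 TPM or more, and Benjamini-Hochberg adjustment over all of them. Fold changes on this scale understate changes of low genes. On data simulated for this comparison, 200 of 13470 genes were changed, fewer than the 1549 called in the real data. Of these, 96% of genes changed by 2 log2 units and 32% of those changed by 1 were recovered. Recovery was not broken down by expression level, so these shares are no measure for low genes such as Cdkn1a, Bbc3 or Chek1.

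Members and lists were chosen with earlier results of these data known. Of each list, genes past the threshold are named, at most 4 per direction; Gadd45a, Gpx1, Rps27l, Ercc5, Bbc3, Pidd1, Perp, Ppbp, Gp9, Epor, Klf1, Cdk1, Aurka, Cdc20 and E2f8 were named after their values were seen. The 17 alternatives were pseudocounts of 0.1 and 5, no filter, a mean of at least 5 TPM, 3 scalings, no trend, array weights, a replicate block, the first row per ID, and leaving out each library; leaving out libraries for the ratios to Trp53 was added after seeing the data. Same-numbered libraries did not vary together (correlations of deviations 0.0215, -0.0152 and 0.0172). The result of 1 lymphoid marker is not reported here. Gene coordinates are from GENCODE M21 (GRCm38) and promoters from RefSeq.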

Additional observations from a re-analysis of the deposited data

How the results depend on the processing

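The count of 1 called gene among the 10 was unchanged under every alternative except rescaling to nuclear protein-coding genes, which gave 2 (Trp53 and Trp53inp1, the latter at 2.43). Mdm4, Cdkn1a and Ccng1 changed sign without ever passing: Ccng1 (-0.095) became 0.29 with median-of-ratios scaling, 0.29 with quantile normalization and 0.33 with protein-coding rescaling. When single libraries were left out, Ccng1 ranged from -0.18 to 0.024, Mdm4 from -0.11 to 0.18 and Cdkn1a from -0.21 to 0.61. The 7 called targets became 4 without the filter and 4 without the variance trend, with a range of 2 to 7 in the leave-one-out fits. The 3 called regulators became 1 without the filter, 1 without the trend and 1 with each of the 3 other scalings, and 1 to 3 in the leave-one-out fits. The 17 called genes of the DREAM list became 11 without the filter. Over all genes, 1549 calls became 752 without the filter, 806 (388 higher, 418 lower) with median-of-ratios scaling, 814 with quantile normalization, 886 with protein-coding rescaling and 767 without the trend. Leaving out a library gave 573 to 1198. With the replicate block 902 genes passed; of the 14 list genes named by rule it ended the calls of Cop1 (adjusted p 0.0514) and Psrc1 (0.0602). Over the 14 list genes named by rule, 31 results lost their call under other settings and 32 with a library left out, and none reversed. The cause was not tested, beyond the fewer libraries. Unknown depth limits the genes near or below 1 TPM most.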
